A study of Mus musculus with 13 samples.

Results

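Genes of enzymes that make serine, glycine, folate-bound carbon units, asparagine, cysteine, alanine and the precursor of proline were followed across white and brown fat of mice carrying a drug-activated form of PERK, the kinase that starts the translational arm of the endoplasmic reticulum stress response. The genes were Phgdh, Psat1, Psph, Shmt2, Mthfd2, Asns, Cth, Cbs, Gpt2 and Aldh18a1. They were chosen by name, and their probes were found through the RefSeq accession that the array files give for each probe. All 10 genes were measured, by 14 probes, among 19748 named genes on the array and 24473 features (genes, or accessions without a gene name) that entered the tests. Phgdh, Psat1, Psph and Cth had a pair of probes each, and the brighter probe was used for the level of the gene.

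PERK phosphorylates the translation initiation factor eIF2alpha, which slows most protein synthesis and favours translation of the transcription factor ATF4. ATF4, working with C/EBP family partners, is known to switch on amino acid synthesis and import genes, and several of the genes described here are textbook targets. Phgdh, Psat1 and Psph carry out the successive steps from a glycolytic intermediate to serine. Shmt2 and Mthfd2 then pass the serine carbon to mitochondrial folate, Asns makes asparagine, Cbs and Cth turn homocysteine and serine into cysteine, Gpt2 makes alanine in mitochondria, and Aldh18a1 starts the synthesis of proline and ornithine from glutamate.

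The animals were male C57BL/6J mice. Those called mAP::Fv2E-PERK carried a fusion of the PERK kinase domain with a domain that the ligand AP20187 dimerizes, and the labels do not spell out what the mAP part of the name drives. Transgenic mice were given AP20187 at 100 ng/g into the peritoneum and sampled 12 h later, which gave 3 white fat (WAT) arrays and 2 brown fat (BAT) arrays. Transgenic mice given the solvent alone gave 2 WAT arrays and 2 BAT arrays, numbered 2 and 3 in BAT, and untreated wild-type mice gave 3 WAT arrays. Wild-type mice given AP20187 were not analysed here, so the ligand itself and the activated kinase cannot be told apart. The protocol speaks of muscles where every label says fat, and the labels do not say whether arrays came from separate animals, and a p-value here therefore reflects only how far arrays of a group lie apart, which may be technical. A 13th array carries labels for both tissues and entered no group.

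Levels below are log2 of the background-corrected intensity of a probe minus the 75th percentile of its array, so 0 is the 75th percentile and 1 unit is a doubling. Between 46.4% and 64.0% of spots were well above background on the 12 grouped arrays. The share was 49.0 to 51.5% on AP20187 WAT arrays, 61.2 to 64.0% on vehicle WAT arrays and 57.9 to 60.6% on wild-type arrays. The 8 adipocyte markers averaged 7.06 to 8.46 on every grouped array, and the 7 brown adipocyte markers averaged 6.25 to 7.81 on BAT arrays, against -0.75 to 1.62 on WAT arrays. Some arrays also held transcripts of other tissues. The 9 epididymis markers averaged 7.81 on AP20187 WAT array 1, -0.57 on array 2 and -6.83 to -4.57 on the other grouped arrays. On array 1 the markers Lcn9, Crisp1 and, of the adipocyte list, Fabp4 had no value and are left out of the means. The 6 prostate and seminal vesicle markers, a list added after the values were seen, averaged 6.94 on wild-type array 3, -1.07 on vehicle WAT array 1 and -5.72 to -3.69 elsewhere. In whole tissue, fewer cells of a type and less RNA per cell cannot be told apart.

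The promoters of Asns, Psph and Mthfd2 are shown because these 3 genes lead the results in BAT, in WAT and in both tissues. They are RefSeq windows of assembly GRCm38.p6, 250 bases before to 50 after the annotated start, minus strand, written 5′ to 3′. Capitals mark a match to TGATGNAA, the core of the C/EBP-ATF response element that ATF4 uses, searched on both strands with overlaps allowed.
Asns, chr6:7693160-7693459: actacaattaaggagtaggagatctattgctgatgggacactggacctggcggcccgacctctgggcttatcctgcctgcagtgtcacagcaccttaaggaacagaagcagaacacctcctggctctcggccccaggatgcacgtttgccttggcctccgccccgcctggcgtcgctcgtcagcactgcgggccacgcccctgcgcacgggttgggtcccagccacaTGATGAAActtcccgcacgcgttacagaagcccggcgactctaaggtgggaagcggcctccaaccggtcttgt
Psph, chr5:129787204-129787503: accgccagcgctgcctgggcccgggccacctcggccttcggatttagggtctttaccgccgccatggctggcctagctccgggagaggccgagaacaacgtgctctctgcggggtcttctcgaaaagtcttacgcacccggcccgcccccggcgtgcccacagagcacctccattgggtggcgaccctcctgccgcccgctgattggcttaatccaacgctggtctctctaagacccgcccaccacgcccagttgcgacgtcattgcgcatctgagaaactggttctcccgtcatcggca
Mthfd2, chr6:83317555-83317854: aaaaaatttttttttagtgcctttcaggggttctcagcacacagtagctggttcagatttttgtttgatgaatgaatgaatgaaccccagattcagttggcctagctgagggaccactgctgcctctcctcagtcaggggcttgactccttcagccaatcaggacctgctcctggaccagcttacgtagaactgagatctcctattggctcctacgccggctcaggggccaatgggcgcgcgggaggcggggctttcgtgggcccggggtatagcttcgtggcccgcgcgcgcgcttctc
The windows of 9 of the 10 genes were in the table, 10 windows in all, since Psat1 had a pair of them. The motif was in 1 of these 10, that of Asns, where TGATGAAA begins at position -23 on the strand of the gene. The motif was in 3.97% of all 32851 windows of the table. A missing match says only that these letters are not in the window.

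In white fat, none of the 10 genes passed the test between AP20187 and vehicle (0 of 10 at a limma adjusted p under 0.05, where 2.23% of all features passed). At an unadjusted p under 0.05 the count was 1, Psph, where 22.3% of all features were below that value. Of the 10 changes 8 were positive, where 58.7% of all features were. In 6 genes, Psat1, Psph, Shmt2, Mthfd2, Asns and Aldh18a1, every AP20187 array lay above both vehicle arrays, where 25% of all features did. The median log2 change of the 10 genes was 0.67, beside 0.15 over all features.

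Of the serine synthesis enzymes, Psph differed most. Psph, the phosphatase of the last step, lay at 4.60, 5.05 and 4.71 on the AP20187 WAT arrays, against 3.40 and 3.64 on the vehicle arrays and 3.21, 3.28 and 3.03 on the wild-type arrays. The 3 AP20187 arrays stood together, and the lowest of them was well clear of the highest control. The measured difference from vehicle was 2.41-fold (log2 1.27, SE 0.38, unadjusted p = 0.0091, limma adjusted p = 0.106), and it did not pass. The other probe of Psph gave 1.37. On the slide that carried the AP20187 arrays and vehicle array 2, the difference was 1.15.

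Psat1, the aminotransferase of the middle step, lay at 5.04, 5.78 and 5.23 with AP20187, against 4.69 and 4.77 with vehicle and 4.69, 4.85 and 4.48 in wild type. The groups did not overlap, but the gap from array 1 to the controls was small beside the spread of the AP20187 arrays, and the log2 change of 0.62 had an SE of 0.62. Phgdh, the dehydrogenase that opens the pathway, lay at 6.06, 6.75 and 6.71 with AP20187, against 6.23 and 6.71 with vehicle. Those groups overlapped, with a log2 change of 0.03 (SE 0.52).

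The mitochondrial folate enzymes varied widely among the AP20187 arrays. Mthfd2, the dehydrogenase and cyclohydrolase of mitochondrial folate, lay at 2.05, -0.36 and -0.18, against -1.0 and -1.45 with vehicle and -0.89, -1.13 and -0.07 in wild type. Array 1 stood far above the rest of its group, and wild-type array 3 lay inside the AP20187 range. The difference from vehicle was 3.31-fold (log2 1.73, SE 0.86) and was 0.96 on the log2 scale without array 1.

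Shmt2, the mitochondrial serine hydroxymethyltransferase, followed the same order of arrays. It lay at 3.06, 1.16 and 1.29 with AP20187, against 0.80 and 0.64 with vehicle and 0.77, 0.94 and 2.05 in wild type. The log2 change from vehicle was 1.11 (SE 0.59), and 0.50 without array 1. Both high arrays, AP20187 array 1 and wild-type array 3, were the ones with the highest means of the epididymis and the prostate and seminal vesicle markers. The part of those transcripts in the Mthfd2 and Shmt2 levels was not tested. AP20187 array 2, which the values without array 1 keep, also carried epididymis markers, at a mean of -0.57, against -6.83 and -6.52 on the vehicle arrays.

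Asns, asparagine synthetase, showed the opposite order. It lay at 5.55, 6.74 and 6.23 with AP20187, against 5.50 and 5.42 with vehicle and 5.49, 5.55 and 5.34 in wild type. Array 1, the array with the most epididymis signal, was level with the highest wild-type array, and arrays 2 and 3 were clearly above all controls. The difference from vehicle was 1.64-fold (log2 0.72, SE 0.38), and 1.03 on the log2 scale without array 1.

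The cysteine pathway did not separate the groups in white fat. Cbs, which joins serine to homocysteine, lay at 3.16, 1.78 and 0.47 with AP20187, against 1.63 and 2.20 with vehicle. Its AP20187 arrays ran from above to below both vehicle arrays, and the log2 change was -0.11 (SE 0.67). Cth, which releases cysteine from the product, lay at 2.53, 1.55 and 1.05, against 1.26 and 1.56, with a log2 change of 0.31 (SE 0.73) that was -0.10 without array 1.

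Gpt2, the mitochondrial alanine aminotransferase, lay at 3.38, 4.52 and 4.24 with AP20187, against 4.78 and 4.08 with vehicle, with overlapping groups and a log2 change of -0.38 (SE 0.33). Aldh18a1, the pyrroline-5-carboxylate synthase, lay at -1.05, -1.58 and -1.24 with AP20187, against -1.84 and -2.20 with vehicle. All AP20187 arrays were above vehicle by a log2 change of 0.73 (SE 0.67), but wild-type array 3, at -0.32, was the highest WAT array of all. Across the 10 genes, AP20187 array 1 was the highest or the lowest of its 3 arrays every time. The same count over all features was not made, so this is not shown to be particular to these genes. AP20187 array 1 also had the lowest endothelial marker mean, -0.33, where the other grouped WAT arrays had 1.62 to 1.99. That mean lacks Kdr, which had no value on array 1 and lay at 3.53 to 4.85 on the others. Emcn lay at -3.59 on array 1, against 0.45 to 1.04. Pecam1, Cdh5, Tie1 and Tek were also lowest there, by smaller gaps, so the means overstate the difference. Csf1r of the macrophage list also lay low on array 1, at -0.97, against 5.05 to 5.97 on the other grouped WAT arrays. Areas of weak neighbouring spots held 1.21% of the spots of array 1. Whether the Emcn and Csf1r spots lay in them was not tested, and neither was whether the tissue content of array 1 moved the other genes.

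**Figure D1:**
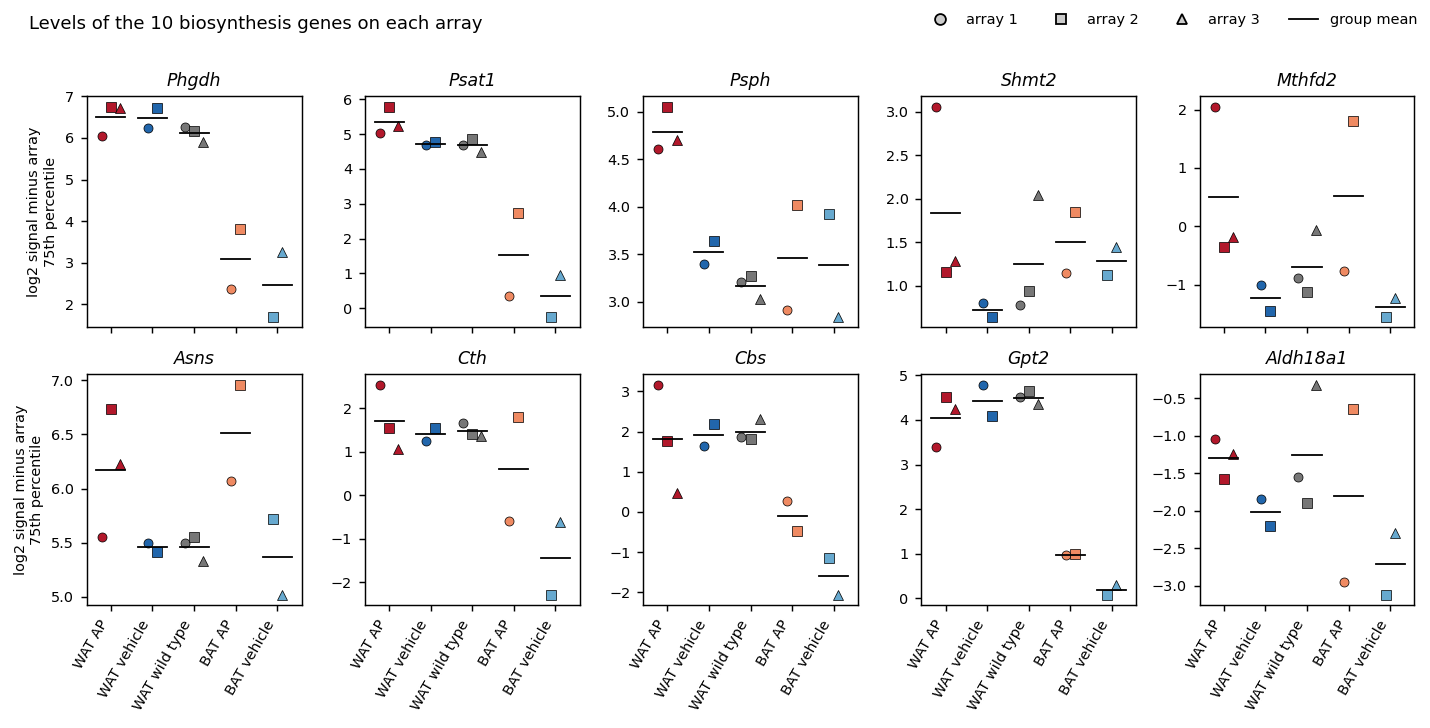
Level of each of the 10 genes (y axis, log2 intensity minus the 75th percentile of the array, a separate scale in each panel) on every array of the 5 groups, with symbols for array numbers and a bar at the group mean. Psph is high on all 3 AP20187 WAT arrays, from 4.60 to 5.05, while Mthfd2 and Shmt2 are high mainly on AP20187 WAT array 1.

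**Figure D2:**
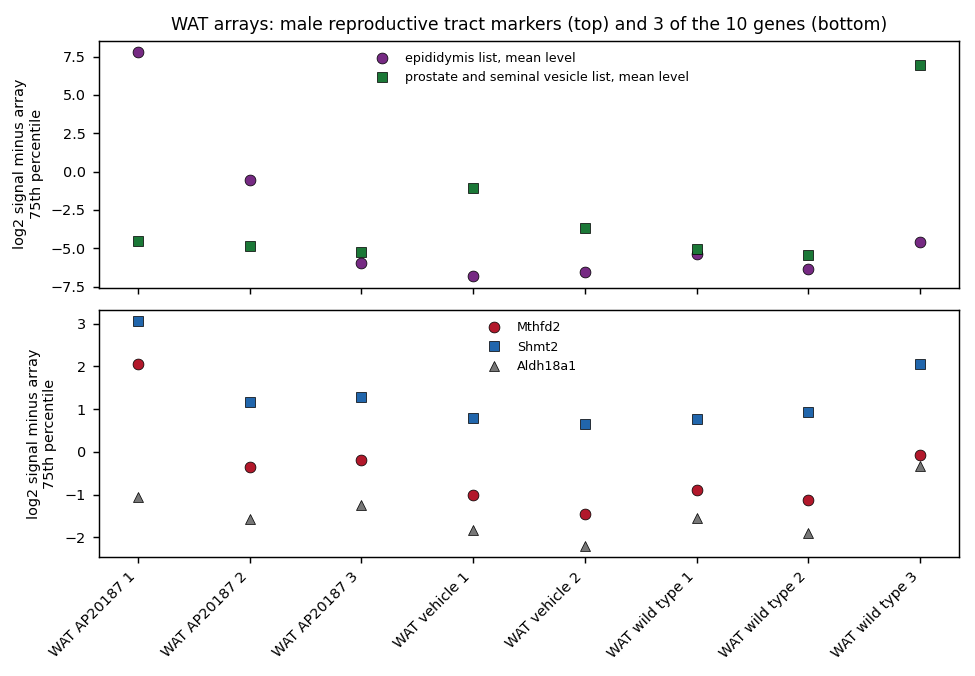
Mean level of the epididymis and the prostate and seminal vesicle markers (upper panel) and levels of Mthfd2, Shmt2 and Aldh18a1 (lower panel) on the 8 WAT arrays, all as log2 intensity minus the 75th percentile of the array. AP20187 array 1, with an epididymis mean of 7.81, and wild-type array 3, with a prostate and seminal vesicle mean of 6.94, carry the highest Shmt2 levels, 3.06 and 2.05.

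Set against untreated wild-type mice, AP20187-treated transgenic WAT had 1 of the 10 genes past the threshold, where 8.86% of all features passed and 7.2% passed upward. Psph rose 3.07-fold (log2 1.62, SE 0.34, limma adjusted p = 0.0313, higher on 3 of 3 AP20187 arrays than on every wild-type array). In 3 genes, Psat1, Psph and Asns, all AP20187 arrays lay above all wild-type arrays, where 25.9% of features did. The median of the 10 changes was 0.49, beside 0.16 over all features. This comparison shares its AP20187 arrays with the one against vehicle and spans both genotype and treatment.

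The call on Psph rests on the settings. Over the alternatives its log2 change ran from 1.25 to 1.71 and its adjusted p from 1.56e-04 to 0.949, and it stayed past the threshold in 14 of 28. No slide held both groups. With slide as a fixed block, which links them through 1 vehicle array on each slide, the change was 1.38 (limma adjusted p = 0.949). With slide as a random block 4 of the 10 genes passed: Psph, Mthfd2 (log2 1.09, adjusted p = 0.0413), Asns (0.69, adjusted p = 0.00907) and Gpt2, which was lower (-0.63, adjusted p = 0.00894). In that setting 13481 of the 24473 features passed, so the count of 4 was not above the share of all features. Without wild-type array 1, 2 or 3 the adjusted p of Psph was 0.109, 0.103 and 0.123, and without AP20187 array 2 or 3 it was 0.0817 and 0.0567.

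The transgene with vehicle alone, against untreated wild type, moved none of the 10 genes past the threshold (0 of 10 by limma, where 0.0245% of all features passed, and 0 at an unadjusted p under 0.05, where 5.03% of them were). The log2 changes ran from -0.76 for Aldh18a1 to 0.36 for Phgdh, with a median of -0.07 beside 0.02 over all features. Psph was the 1 gene whose vehicle arrays both lay above all wild-type arrays, by 0.35 (SE 0.38), where 19.4% of features did so. On the slide that carried vehicle array 1 and the wild-type arrays, the difference was -0.58 for Aldh18a1 and 0.12 for Phgdh.

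In brown fat all 10 changes between AP20187 and vehicle were positive, where 45.5% of all features had a positive change, but none passed the test (0 of 10 by limma, where 0.00817% of features passed). At an unadjusted p under 0.05 there were 2, Asns and Cth, where 7.36% of all features were below that value. The median log2 change was 1.03, beside -0.04 over all features. In 5 genes, Mthfd2, Asns, Cth, Cbs and Gpt2, both AP20187 arrays lay above both vehicle arrays, where 15.7% of features did. With 2 arrays a side, the intervals were wide. The spread of a gene was estimated from all 5 groups together, so the WAT arrays also entered the SEs given for BAT.

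Asns lay at 6.07 and 6.96 on the AP20187 BAT arrays, against 5.72 and 5.02 on the vehicle arrays. Both AP20187 arrays were clear of both vehicle arrays, and the difference was 2.21-fold (log2 1.15, SE 0.42, unadjusted p = 0.0229, limma adjusted p = 0.572). Cth lay at -0.60 and 1.80, against -2.29 and -0.62. Its lower AP20187 array was barely above the higher vehicle array, so the 4.14-fold difference (log2 2.05, SE 0.80, unadjusted p = 0.0311, limma adjusted p = 0.603) came mostly from array 2.

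Mthfd2 lay at -0.77 and 1.81, against -1.55 and -1.23, a 3.75-fold difference (log2 1.91, SE 0.94) in which array 2 again stood far above array 1. Cbs lay at 0.26 and -0.47, against -1.14 and -2.06, and was the 1 gene of the 10 with array 1 above array 2. Its difference was 2.82-fold (log2 1.5, SE 0.74). Gpt2 was the most even, at 0.96 and 1.0, against 0.08 and 0.31, a 1.72-fold difference (log2 0.79, SE 0.37).

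The remaining 5 genes overlapped between the groups in brown fat. Psat1 lay at 0.36 and 2.72, against -0.24 and 0.97, with a log2 change of 1.18 (SE 0.68). Phgdh lay at 2.36 and 3.82, against 1.70 and 3.24, with a change of 0.62 (SE 0.57). Aldh18a1 lay at -2.95 and -0.65, against -3.12 and -2.30, with a change of 0.91 (SE 0.73). In each of these, array 2 was above both vehicle arrays and array 1 lay between them. Psph, the most separated gene in white fat, lay at 2.91 and 4.02, against 3.93 and 2.84, and its change was 0.08 (SE 0.42). Shmt2 lay at 1.15 and 1.85, against 1.13 and 1.45, with a change of 0.21 (SE 0.65).

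**Figure D3:**
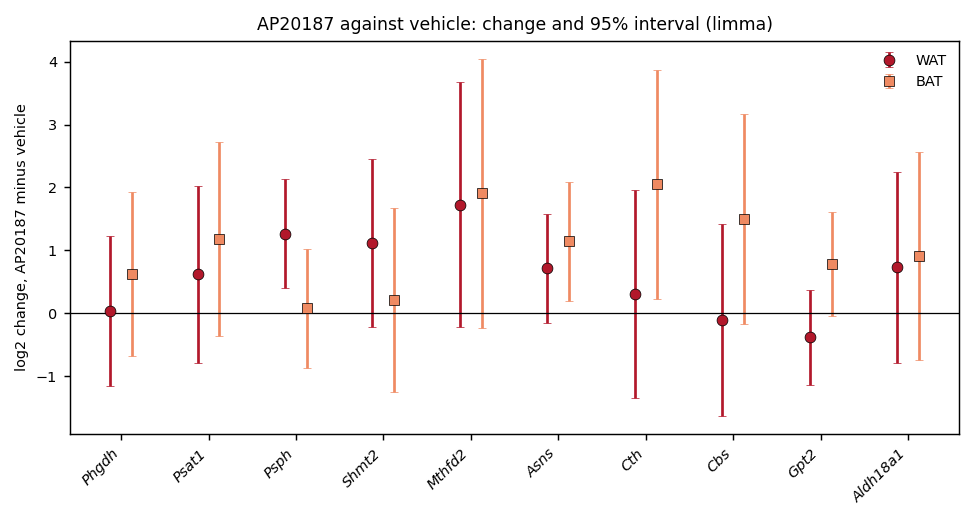
Log2 change with its 95% interval from limma (y axis, AP20187 minus vehicle) for each of the 10 genes, in WAT (circles) and BAT (squares). Intervals that leave out 0 are those of Psph in WAT and of Asns and Cth in BAT, and none of these passed after adjustment over all features.

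The AP20187 BAT arrays were unlike each other. Array 2 lay above both vehicle arrays in 10 of 10 genes, by a median of 1.47 log2 units over the vehicle mean. Array 1 did so in 5 of 10, with a median of 0.31. The same counts over all features were not made for each array. They therefore do not say whether the unlikeness belongs to these genes or to the whole arrays. Without array 2 the median change was 0.31, and Phgdh, Psat1, Psph, Shmt2 and Aldh18a1 had negative changes. Skeletal muscle markers also varied between these arrays, with list means of 4.44 and 3.52 on the AP20187 arrays, against 0.97 and 5.21 on vehicle arrays 2 and 3. Their part in the levels was not tested.

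**Figure D4:**
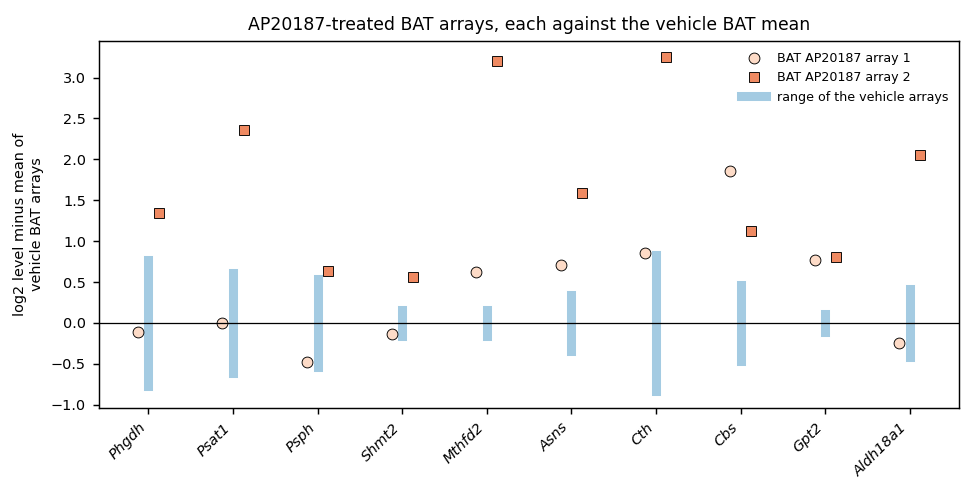
Level of each gene on AP20187 BAT arrays 1 and 2 minus the mean of the vehicle BAT arrays (y axis, log2), with a band for the range of the 2 vehicle arrays. Array 2 is above the band for all 10 genes and array 1 for 5, among them Cbs, Gpt2, Asns and Mthfd2.

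The AP20187 changes in brown and white fat were compared directly as a difference of differences. None of the 10 genes passed (0 of 10 by limma, where 0% of features passed, with 16.5% of features and 1 of the 10 genes at an unadjusted p under 0.05). That gene was Gpt2, with a BAT minus WAT difference of 1.17 (SE 0.50, unadjusted p = 0.0434, limma adjusted p = 0.288, 95% interval 0.04 to 2.29). For Psph the difference was -1.19 (SE 0.57, interval -2.47 to 0.09), for Cth 1.74 (SE 1.08) and for Cbs 1.61 (SE 1.0). The intervals of the last 3 all include 0, and that of Gpt2 is not adjusted for the number of features. A difference between the tissues was therefore not shown for any of the 10 genes, nor were equal changes.

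The tissues were then compared without the ligand. In vehicle-treated BAT, 5 of the 10 genes fell below vehicle-treated WAT past the threshold (0 were higher), where 23.4% of all features passed and 9.16% passed downward. In 6 genes both BAT arrays lay below both WAT arrays, where 29.9% of all features did, and in 1, Shmt2, above them, where 39% did. Of the 10 differences 1 was positive, where 54.9% of all features had a positive one. The median log2 difference of the 10 genes was -1.77, beside 0.11 over all features. All BAT arrays shared a slide that held no WAT array, so slide and tissue cannot be told apart. The same 5 genes passed with slide as a random block, which cannot separate slide from tissue either.

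Gpt2 lay at 0.08 and 0.31 on the vehicle BAT arrays, against 4.78 and 4.08 on the vehicle WAT arrays. It was 18.8-fold lower (log2 -4.23, SE 0.37, limma adjusted p = 2.49e-04) and every BAT array of either treatment lay below every WAT array. Psat1 lay at -0.24 and 0.97, against 4.69 and 4.77, and was 20.6-fold lower (log2 -4.37, SE 0.68, limma adjusted p = 0.00263). Phgdh lay at 1.70 and 3.24, against 6.23 and 6.71, and was 16.0-fold lower (log2 -4.0, SE 0.57, limma adjusted p = 0.00185).

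Psph, the last enzyme of serine synthesis, did not pass. It lay at 3.93 and 2.84 in BAT, against 3.40 and 3.64 in WAT, with overlapping groups and a log2 difference of -0.14 (SE 0.42, interval -1.08 to 0.81). Both cysteine pathway genes fell in BAT. Cbs lay at -1.14 and -2.06, against 1.63 and 2.20, and was 11.4-fold lower (log2 -3.52, SE 0.74, limma adjusted p = 0.00992). Cth lay at -2.29 and -0.62, against 1.26 and 1.56, and was 7.24-fold lower (log2 -2.86, SE 0.80, limma adjusted p = 0.0327).

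Of the other genes, Shmt2 was the 1 with a positive difference, 0.57 (SE 0.65), which did not pass. Asns, at -0.09 (SE 0.42), and Mthfd2, at -0.16 (SE 0.94), overlapped between the tissues, and Aldh18a1 had -0.69 (SE 0.73). The calls on Cth and Cbs were the least stable, and both were lost without vehicle WAT array 2, with adjusted p-values of 0.13 and 0.062. That array carried the liver markers at a mean of 3.87, where the other grouped WAT arrays had -1.05 to 1.39, and their part was not tested. The calls on Cth were also lost without vehicle WAT array 1 (adjusted p = 0.0987), BAT array 2 (0.195) or any wild-type array, and that on Cbs without BAT array 3 (0.0512).

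**Figure D5:**
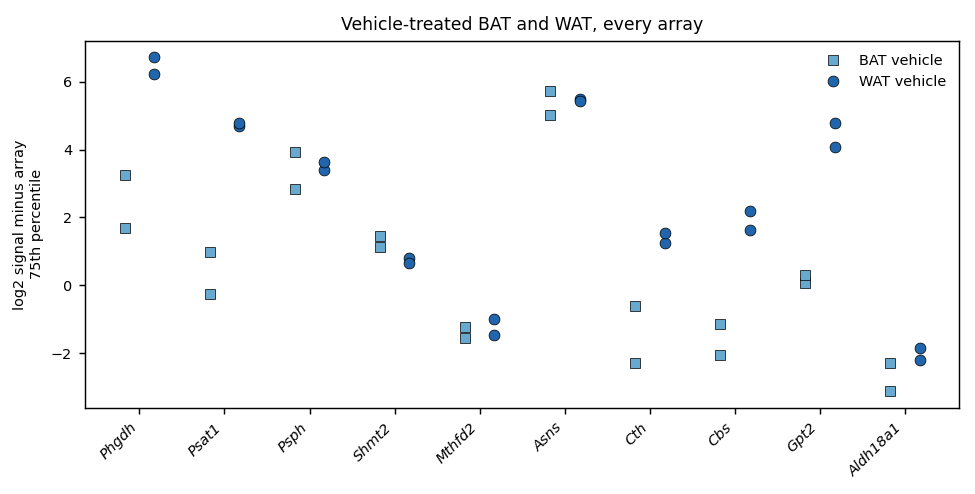
Level of each gene (y axis, log2 intensity minus the 75th percentile of the array) on the 2 vehicle BAT arrays (squares) and the 2 vehicle WAT arrays (circles). Phgdh, Psat1, Cth, Cbs and Gpt2 lie lower in BAT on both arrays, while Psph, Mthfd2 and Asns overlap.

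The order of the 5 groups followed the same split. Phgdh and Psat1 had group means in the order AP20187 WAT, vehicle WAT, wild-type WAT, AP20187 BAT and vehicle BAT, from the highest down. For Phgdh the only neighbours whose arrays did not overlap were wild-type WAT and AP20187 BAT. For Asns and Mthfd2 the order was AP20187 BAT, AP20187 WAT, wild-type WAT, vehicle WAT and vehicle BAT, so that the AP20187 groups of both tissues came before all controls. For Mthfd2 no pair of neighbours was free of overlap. The other genes had other orders. Cth had the WAT groups first, in the order AP20187, wild type and vehicle. Cbs and Gpt2 had wild-type WAT, vehicle WAT, AP20187 WAT, AP20187 BAT and vehicle BAT. Psph had wild-type WAT last, below both BAT groups. Shmt2 had both BAT groups above wild-type and vehicle WAT. Aldh18a1 had wild-type WAT first, and AP20187 BAT above vehicle WAT.

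Of 42 other genes of serine, glycine, folate, methionine, cysteine, alanine, glutamate and proline metabolism, 40 were tested. In white fat 0 of them passed against vehicle with limma, and 7 had an unadjusted p below 0.05, where 22.3% of all features did. Against wild type 3 of the 40 rose, where 7.2% of all features rose, so that the count was near that share. They were Tyms, thymidylate synthase, Gcsh, a subunit of the glycine cleavage system, and Pycrl, a reductase of the proline pathway. Tyms rose 2.03-fold (log2 1.02, SE 0.25, limma adjusted p = 0.0403). Gcsh rose 1.80-fold (log2 0.85, SE 0.19, limma adjusted p = 0.0333) and Pycrl 1.56-fold (log2 0.64, SE 0.16, limma adjusted p = 0.0453). Over the 28 alternatives Tyms passed in 10, Gcsh in 13 and Pycrl in 8. The median log2 change of the 40 was 0.28 against vehicle and 0.24 against wild type, beside 0.15 and 0.16 over all features.

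Isoenzymes of some of the 10 genes did not pass in white fat with AP20187. Shmt1, the cytosolic partner of Shmt2, had a log2 change of -0.04 (SE 0.26), Mthfd1, the cytosolic folate enzyme, 0.18 (SE 0.22), Mthfd2l, the relative of Mthfd2, 0.43 (SE 0.19, with 1 AP20187 array missing) and Gpt, the cytosolic alanine aminotransferase, 0.42 (SE 0.43). Bhmt, which remethylates homocysteine, had the largest difference of the list, -3.96 (SE 1.14, adjusted p = 0.0954). It lay at -1.28, -2.53 and -2.17 with AP20187, against -0.25 and 4.18 with vehicle. The array at 4.18 was the one with the high liver markers, and their part was not tested.

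In brown fat 0 of the 40 passed against vehicle with limma, 2 had an unadjusted p below 0.05, where 7.36% of all features did, and the median log2 change was 0.23, beside -0.04 over all features. Between vehicle BAT and vehicle WAT 11 of the 40 passed, 7 higher and 4 lower, near the 23.4% of all features that passed, 14.3% higher and 9.16% lower. Shmt1 rose 7.34-fold in BAT (log2 2.88, SE 0.28, limma adjusted p = 4.28e-04), at 0.67 and -0.14 in BAT, against -2.77 and -2.45 in WAT. Got1, the cytosolic aspartate aminotransferase, was 3.79-fold higher and Slc25a32, the mitochondrial folate carrier, 3.88-fold. Gcsh, Mat2b, Sdsl and Aldh1l2 were the other higher genes, at 1.72-fold to 3.26-fold. Aldh1l2 was well above background on only 1 vehicle array of each tissue, and it passed in 15 of 26 alternatives. The lower genes were Oat (1.78-fold) and Bhmt, Bcat1 and Ftcd, and these last 3 were not well above background on either vehicle BAT array.

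The genes whose centred levels lay nearest to Asns over the 12 arrays, among 14438 named features, were Gnl3, Gpatch4 and Lars, at root-mean-square differences of 0.17, 0.20 and 0.21 log2 units, where Asns itself varied with an SD of 0.56. For Mthfd2 (SD 1.13) they were Slc7a1 at 0.52, Ern1 at 0.64 and Slc6a9 at 0.66. Slc7a1 is an importer of cationic amino acids and Slc6a9 one of glycine. Slc7a1 was picked for its nearness to Mthfd2 on these same arrays, so a like order of arrays is largely built in. Among WAT arrays Slc7a1 was highest on AP20187 array 1, at 4.23, then on wild-type array 3, at 2.88. For Cth (SD 1.30) they were Ptch1, Gab2 and Ttc26, at 0.58 to 0.59. These distances are descriptions, without a test, over arrays that share groups and slides.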

How the data were processed

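RNA from white and brown fat was read with Cy3 on 1-colour Agilent arrays (design 028005, build mm9, per the file headers). The authors deposited, per the file headers, scanner output whose processed signal is an intensity. Agilent Feature Extraction 10.7.1.1 had taken off the background and a spatial trend inside each array, and arrays were not scaled to each other. The value table that the authors deposited, also an intensity, served as an alternative. From the deposited intensity, log2 levels relative to the 75th percentile of each array were computed here.

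Outlier spots were dropped and spots of a probe averaged. Names came from RefSeq records of GRCm38.p6, which named 26050 of 55681 probes by 1 gene each. A probe was kept if some group, of the 5, had it well above background on all of its arrays, and the brightest kept probe stood for its gene, which gave 24473 features, 15096 of them named. All 12 grouped arrays were fitted together with limma 3.58.1 under R 4.3.3 (lmFit and eBayes), with Benjamini-Hochberg adjustment over all features and a threshold of 0.05. The procedure was tested on simulated data. The alternatives covered other scalings, normexp (offset 50) on the median spot signal, other filters and probe rules, the compared arrays alone, slide and replicate number as blocks, the 13th array in either tissue, and arrays left out. Leaving out AP20187 WAT array 1 together with wild-type array 3 was chosen after seeing the data.

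Groups followed the labels, and the 13th array was left out because its title and source name give different tissues. The 10 genes and the other lists were chosen with earlier results of these data known. All 10 genes are described in each comparison. Of the wider pathway list, genes past the threshold, the isoenzymes and 1 large difference without overlap are named, and some genes of that list are not reported here. No spot of the 14 probes lay in a weak area of an array (0 of 168, where the median of neighbouring spots was below -1 on the log2 scale). Such areas were found only on the AP20187 WAT arrays, where they held 1.21%, 4.0% and 1.09% of all spots on arrays 1, 2 and 3. Weak areas and AP20187 treatment of WAT therefore go together. Their part in the shares over all features, the marker means and the wider pathway list was not tested. The number of arrays limits the precision.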

Additional observations from a re-analysis of the deposited data

How the results depend on the processing

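Each result was recomputed under up to 28 alternatives, and values below are log2 changes or counts out of 10 genes. Of the values for single genes 1502 kept their direction and side of the threshold, 128 lost the threshold, 7 passed it and 43 changed sign. Counting the 13th array as vehicle WAT, 1 gene passed in WAT against vehicle, Psph (1.29, limma adjusted p = 0.0402, with 0.0402 to 0.443 over its alternatives). Of the 24473 features 1910 passed in that setting, where 545 did in the main one. The brown adipocyte markers of the 13th array averaged 0.34, where the BAT arrays had 6.25 to 7.81, so its markers were unlike those of BAT. With this array counted as vehicle BAT all the same, the BAT median was 0.43 and the difference of differences had a median of -0.16. BAT against WAT then had 0 genes passing and a median of -1.16. That median was -1.29 with normexp and quantile scaling.

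Against wild type, 0 genes passed with quantile scaling, a percentile taken over the probes detected on all 12 arrays, normexp and quantile, only the compared arrays, slide as a fixed block, the replicate block, the 13th array as vehicle BAT, and both left-out pairs of arrays. It was 4 with slide as a random block, where 13481 of the 24473 features passed. Leaving out single arrays gave 0 to 1 there, 3 to 5 for BAT against WAT (3 without vehicle WAT array 2), a BAT median of 0.31 to 1.47 and a median difference of differences of -0.38 to 1.28. The median was -0.01 without vehicle BAT array 2, 1.28 without AP20187 BAT array 1 and -0.38 without AP20187 BAT array 2.

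The sign turned for Phgdh in WAT against vehicle with quantile scaling (-0.44), the detected-probe percentile (-0.27), normexp and quantile (-0.49), the authors' value table (-0.034), the mean of probes (-0.048), slide as a fixed block (-0.21), the replicate block (-0.13), and single arrays left out (-0.21 to 0.27). Cbs there turned to 0.17 with the replicate block and ran from -0.79 to 0.55 with single arrays left out. Cth, at -0.10 to 0.64 with single arrays left out, turned to -0.10 without AP20187 array 1, also when wild-type array 3 was left out with it, and to -0.35 without arrays 1 and 2. In BAT with the 13th array as vehicle BAT, Phgdh was -0.64, Psat1 -0.23 and Gpt2 -0.61, and the difference of differences of Gpt2 was -0.23. Without AP20187 BAT array 2, Phgdh was -0.11, Psat1 -0.0055, Psph -0.47, Shmt2 -0.14 and Aldh18a1 -0.24. The highest values with a single array left out were 1.39, 2.36, 0.63, 0.56 and 2.06 for these 5 genes. Without vehicle BAT array 2 Phgdh was -0.16, and without vehicle array 3 Psph was -0.46. Gpt2 against wild type was 0.26 with slide as a fixed block. Between vehicle BAT and vehicle WAT, Asns was 0.0056 with the 13th array as vehicle BAT. With single arrays left out there, Asns reached 0.26, Psph ran from -0.68 to 0.41 and Mthfd2 from -0.39 to 0.060.

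Of the wider list in WAT against vehicle, Shmt1 was 0.16 with quantile scaling, 0.057 with normexp as well, 0.00067 with slide as a random block, 0.047 with the replicate block, 0.044 with the 13th array as vehicle WAT, and -0.20 to 0.12 with single arrays left out. Mthfd1 was -0.014 with quantile scaling, -0.12 with the detected-probe percentile and -0.076 with normexp and quantile. The cause was not tested.

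Of 19 same-numbered pairs of arrays, 2 had deviations from their group means correlated above 0.1 (range -0.23 to 0.11). In a group of 2 arrays the deviations mirror each other, so this cannot settle whether the replicate numbers pair the arrays. With the replicate block Psph against wild type was 1.62 (limma adjusted p = 0.0591; 1.56e-04 to 0.949 over its alternatives) and Cth in BAT against WAT -2.92 (adjusted p = 0.0934; 0.0117 to 0.385), and neither passed. The counts of features past the threshold moved widely: AP20187 WAT against vehicle gave 545 in the main setting and 0 to 5512 otherwise, BAT 2 and 0 to 134, AP20187 WAT against wild type 2169 and 0 to 13481, vehicle against wild type 6 and 0 to 849, BAT against WAT 5733 and 0 to 11152, and the difference of differences 0 and 0 to 430.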

Other observations

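The array whose title and tissue label say BAT and whose source name says WAT entered no group. It carried Gpt2 at 4.40, Phgdh at 6.26, Psat1 at 4.58, Cbs at 1.59 and Cth at 1.38. The vehicle BAT arrays had 0.08 to 0.31, 1.70 to 3.24, -0.24 to 0.97, -2.06 to -1.14 and -2.29 to -0.62 for these genes, and the vehicle WAT arrays 4.08 to 4.78, 6.23 to 6.71, 4.69 to 4.77, 1.63 to 2.20 and 1.26 to 1.56. Its Psph level was 3.46, Asns 5.65, Mthfd2 -1.41, Shmt2 0.66 and Aldh18a1 -1.89. Its brown adipocyte markers averaged 0.34, where the BAT arrays had 6.25 to 7.81 and the grouped WAT arrays -0.75 to 1.62. Its mesothelial markers averaged 2.62, where the BAT arrays had -5.21 to -4.22 and the grouped WAT arrays 1.85 to 2.79.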
